A study of Felis catus with 77 samples.

Results

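The genes described here were read at similar levels in peritumoral adipose tissue (AT) and connective tissue (CT) of cats with fibrosarcoma (FSA) and at lower levels in both the tumor (T) and skeletal muscle (SM). They were chosen on the measured counts. A gene qualified when its tissue medians in AT and CT were both at least 50 normalized counts and lay within 2-fold of each other, and the 100 qualifying genes with the largest ratio of the smaller AT or CT median to the larger T or SM median (1 added to each) were kept. Of 19587 gene identifiers in the files, 7540 met the conditions on AT and CT, and 100 were taken. Because the medians of all 4 tissues chose the genes, their high level in AT and CT and their low level in T and SM are a description of the choice and were not tested.

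The 77 libraries came from 30 cats with primary FSA, a malignant tumor of fibroblast-like cells that is often aggressive and locally invasive. They comprise 30 T, 16 AT, 11 CT and 20 SM libraries. Each tissue was cut by laser-capture microdissection (LCM) from formalin-fixed, paraffin-embedded (FFPE) blocks of the patient's own surgical material, so the normal tissues (NT) are neighbors of a tumor rather than tissue of healthy animals. For each case and tissue 2 caps were collected. Breed, sex and age are not part of the sample labels and played no role in the grouping, no treatment was compared, and tumors of injection sites were not separated from others. The AT library of cat 5 carries a tumor tissue label but an AT title, and was grouped by its title.

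Adipose tissue stores fat in adipocytes, which lie in a stroma of fibroblasts, vessels and resident immune cells. Connective tissue consists of fibroblasts in a collagen-rich matrix, with the same kinds of vessels and wandering cells. Fibroblasts and vessels are therefore found in both, while skeletal muscle is dominated by multinucleated myofibers and an FSA by the transformed cells. The files name each gene by an Ensembl identifier alone and pair none with a symbol, so the functions of the genes are not stated, and neither the tissue labels nor the genes could be checked against markers of adipocytes, fibroblasts, endothelium or muscle. In bulk tissue, fewer cells of a type and less RNA per cell cannot be told apart.

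The libraries held between 847003 and 19099337 counts, and 14 were below 2000000 (3 T, 6 AT, 3 CT and 2 SM). AT and CT were the shallower tissues, with median totals of 2908520 and 3904682 counts against 8405498 in T and 12291936 in SM. Cats 11 to 17 contributed 7 T, 5 AT, 3 CT and 3 SM libraries, which stood apart from the rest in earlier results of these data, and values are given with and without them where they matter. No 2 libraries were identical.

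Within each tissue, the mean of log2(normalized count + 1) over the 100 genes was calculated for every library. In AT it ran from 7.41 to 8.39 with a median of 8.12 (16 libraries), and in CT from 7.73 to 8.27 with a median of 7.92 (11 libraries). In SM it ran from 4.29 to 7.27 with a median of 5.71 (20 libraries), and in T from 3.67 to 6.58 with a median of 4.81 (30 libraries). AT and CT thus lay in overlapping narrow ranges, and T and SM each spread over nearly 3 log2 units below it. The lowest AT library, that of cat 6, was still above the highest SM library, that of cat 30, a separation that follows from the choice of the genes. When the genes were chosen without the AT library of cat 5, its mean was 8.16, inside the range of the other AT libraries (7.44 to 8.41) and above the highest T library (6.62) and the highest SM library (7.30). The CT libraries were not read with that choice. Because the genes were chosen to be similar in AT and CT, the value cannot tell AT from CT.

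**Figure D1:**
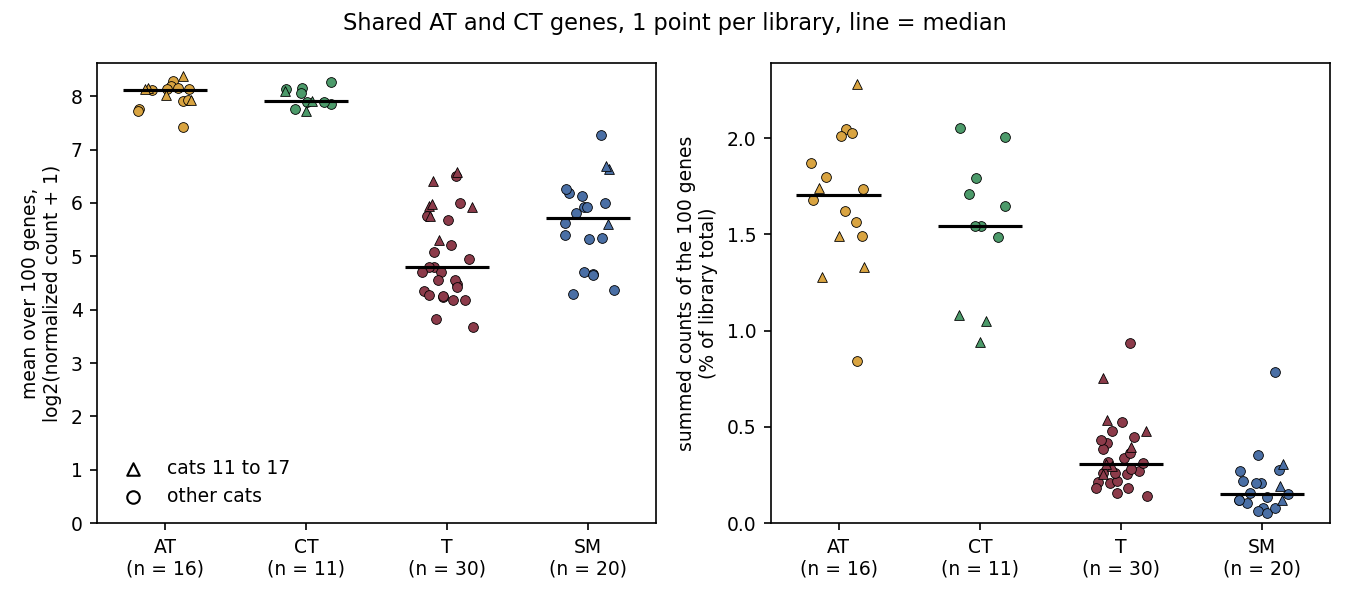
Level of the 100 genes in each library, as the mean of log2(normalized count + 1) on the left and as the summed counts in percent of the library total on the right. Each point is a library, triangles are the libraries of cats 11 to 17, and lines are tissue medians. On the left SM (median 5.71) lies above T (4.81), on the right T (median 0.309%) lies above SM (0.153%).

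Counted as a share of all counts, the genes took 0.843% to 2.28% of an AT library (median 1.71%), 0.939% to 2.05% of a CT library (median 1.54%), 0.140% to 0.936% of a T library (median 0.309%) and 0.0511% to 0.787% of an SM library (median 0.153%). The order of T and SM depends on the scale: T was above SM by share of the library and below it by normalized count. The largest share in T belonged to cat 26 and the largest in SM to cat 30, where the next SM library, that of cat 23, had 0.352%. In AT the smallest share, 0.843%, was that of cat 6, and the next was 1.28%. The 3 CT libraries of cats 11 to 17 had 0.939% to 1.08%, below the 1.49% to 2.05% of the other 8.

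Gene by gene, the tissue medians covered 51.6 to 6802 normalized counts in AT (median gene 202.5) and 56.0 to 7822 in CT (median gene 219.8). The same genes had medians of 0 to 1318 in T (median gene 24.5) and 1.51 to 1399 in SM (median gene 39.8). These counts are not corrected for transcript length, so genes were not ranked against each other by level. The T median was under 10 for 20 of the 100 genes and the SM median for 9, and the T median was 0 for 1 gene. The AT median was above the CT median for 47 genes and below it for the other 53, and the ratio of AT to CT ran from 0.511 to 1.92.

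The ratio used for the choice ran from 2.88 to 16.6 with a median of 3.68. It was at least 8 for 9 genes, at least 4 for 41 and at least 3 for 92. At the lower edge the genes in ranks 99 and 100 had ratios of 2.89 and 2.88, and the first 2 genes left out both had 2.85, so the limit cuts through a continuous series. The next sentences take the 2 genes with the largest ratios.

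The gene with the largest ratio, ENSFCAG00000004254, had a lowest, median and highest level of 0, 69.3 and 446 normalized counts in AT and of 20.7, 85.1 and 481 in CT. In T these values were 0, 1.5 and 96.6, and in SM 0, 3.23 and 641. The groups overlapped widely: the AT library of cat 23 had no count, 20 of 30 T libraries had at least 1, and the highest of all 77 values, 641, was the SM library of cat 11. That library is among the shallow ones, with 1098607 counts. The highest T, AT, CT and SM values of this gene all came from cats 11 to 17. Its log2 fold change against T was 2.70 (SE 0.73) in AT and 3.02 (SE 0.77) in CT, both called. Against SM it was 1.24 (SE 0.80) and 1.79 (SE 0.86), neither called, and with the cat as a block 3.03 (SE 0.95) and 2.63 (SE 0.63), both called.

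The gene in second place, ENSFCAG00000021944, had 110, 462 and 1130 normalized counts in AT and 111, 327 and 495 in CT (lowest, median and highest). It had 0, 11.8 and 177 in T and 1.73, 21.9 and 67.2 in SM. Every AT and every CT library was above all 20 SM libraries. Against T there was some overlap, because the T library of cat 14 reached 177 while the second highest T library, that of cat 8, had 70.4. Its log2 fold change was 4.50 (SE 0.46) in AT and 3.61 (SE 0.49) in CT relative to T.

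**Figure D2:**
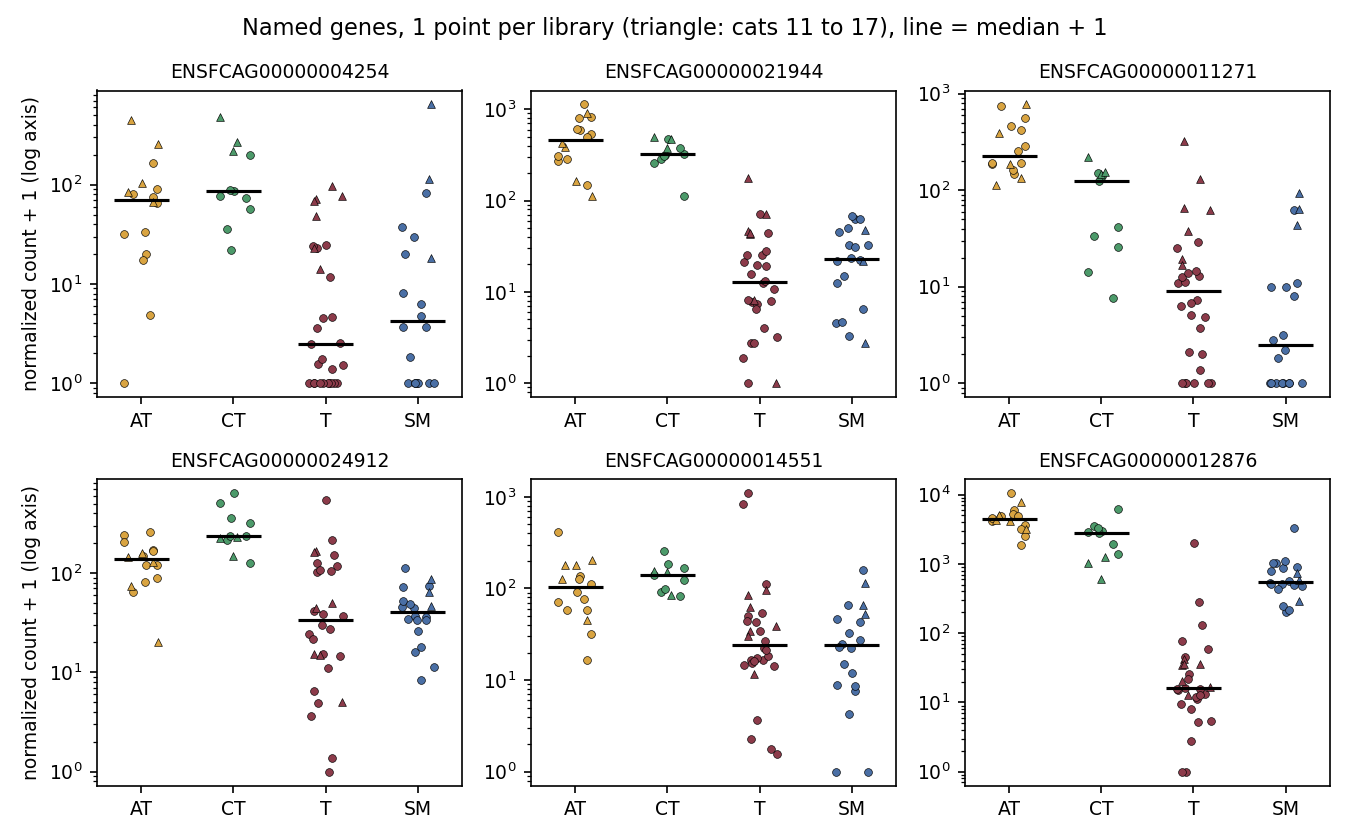
Normalized counts + 1 (log axis) of the 6 genes named in the text, in the 4 tissues. Points are libraries, triangles are cats 11 to 17, and lines are medians. ENSFCAG00000021944 separates AT and CT from SM, while ENSFCAG00000004254 has its highest value, 641, in an SM library, and ENSFCAG00000012876 has T values from 0 to 2024.

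Most of the genes were detected throughout both tissues that define them. A count was present in every AT and every CT library for 90 of the 100 genes, and at least 10 counts for 59. In T, 52 genes had a count in all 30 libraries, and in SM 47 had one in all 20. In all 77 libraries 32 of the 100 genes were detected, where 6527 of all 19587 identifiers were. Low in T and SM therefore did not mean missing for most of them. The share of all genes was not counted for the other detection numbers, so they do not set the genes apart from others. A T library held counts of 78 to 100 of the genes, and an SM library counts of 66 to 100, where the lowest number was in the SM library of cat 7, one of the shallow ones.

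In edgeR fits of each pair of tissues, with genes called at a log2 fold change beyond 1 and an adjusted p under 0.05, all 100 genes had a positive fold change in AT and in CT against both T and SM. Of these, 92 were called higher in AT than T (10.2% of all genes tested), 78 in CT than T (6.52% of all genes), 96 in AT than SM (21.1%) and 96 in CT than SM (23.8%). The opposite call was made for 0 of the genes in each of the 4 comparisons, where 9.08% of all genes were higher in T than AT, 9.06% higher in T than CT, 13.8% higher in SM than AT and 15.3% higher in SM than CT. The direction was set by the choice. The median log2 fold change was 1.93 for AT and 1.91 for CT against T, and 1.88 for AT and 1.96 for CT against SM, where the medians over all genes tested were -0.06, -0.14, 0.23 and 0.30. The comparisons share libraries and are given side by side only.

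Complete separation of the libraries was rare. Every AT library was above every T library for 4 of the 100 genes (0.621% of the 15950 genes compared), and every CT library was above every T library for 0 genes (0.119%). Against SM, every AT library was higher for 9 genes (0.821%) and every CT library for 4 genes (0.915%). For 0 genes did all AT and CT libraries exceed all T and SM libraries (0.00%). For 77 of the 100 genes at least 1 T library reached above the lower of the AT and CT medians, and for 62 genes at least 1 SM library did. The share of all genes was not counted here, so these numbers do not set the genes apart from others. T and SM are not compared by them, because T had 30 libraries and SM 20.

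Libraries of the same cat gave the same description, which the choice largely set, because the same libraries formed the tissue medians. In the 16 cats with both tissues, AT was higher than T in all 16 for 40 of the 100 genes (3.49% of all genes), and within a cat 73 to 100 of the genes were higher in AT. In the 11 cats with CT and T, 43 genes were higher in CT in all 11 (2.82%), with 81 to 98 genes per cat. Relative to SM, 60 genes were higher in AT in all 10 cats (8.51%), with 83 to 100 per cat, and 65 were higher in CT in all 8 cats (13%), with 90 to 98 per cat. In none of these 4 pairs of tissues was a gene of the 100 lower in AT or CT in every cat (0 genes each), where 2.50% of all genes were lower in AT than T, 1.64% in CT than T, 9.79% in AT than SM and 12.2% in CT than SM. The lowest number, 73, was in cat 26, whose T library had the largest share of these genes among the tumors. The highest, 100 against T, was in cat 15.

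Tumors differed widely from one another in these genes. The number of genes above the lower of the AT and CT medians was 29 in the T library of cat 11, 25 in that of cat 17, 15 in those of cats 12 and 26 and 13 in that of cat 14. It was 0 in the T libraries of cats 20, 21, 31 and 33, and the median over all 30 was 4. The T libraries of cats 11, 17 and 12 were the 3 below 2000000 counts, with 957697, 1875842 and 1989902. Those of cats 26 and 14 had 6535334 and 6656909 counts. The highest T value was also shared out unevenly: it lay in cat 8 for 16 genes, in cats 11 and 26 for 15 genes each and in cat 14 for 13, and 19 of the 30 T libraries were the highest for at least 1 gene. For 42 genes the T mean was at least 2 times the T median, which was the case for 17 genes in SM, 3 in CT and 1 in AT. The choice favors this contrast, because it took genes with low medians in T and SM and high medians in AT and CT. The share of all genes was not counted.

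**Figure D3:**
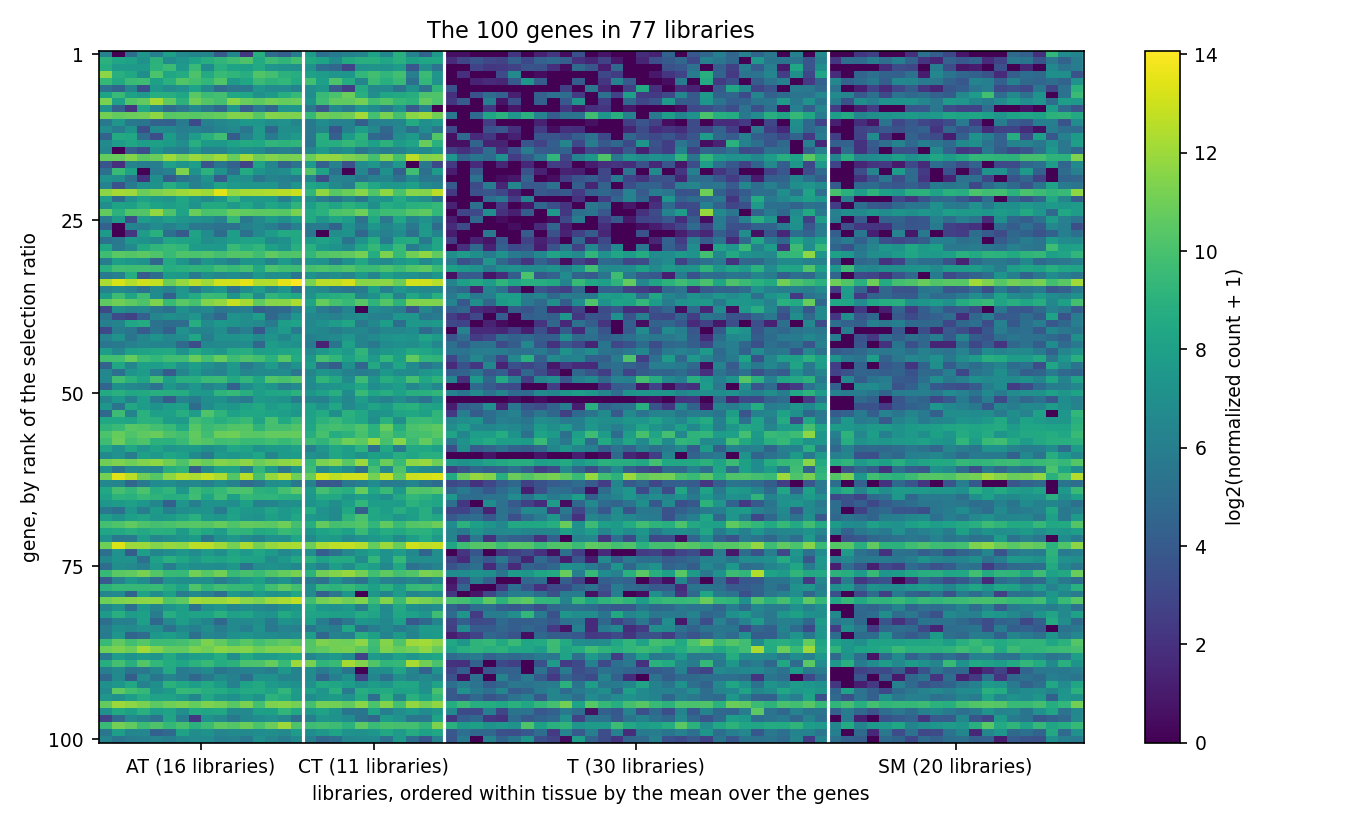
Values of log2(normalized count + 1) for the 100 genes (rows, in the order of the ratio used for the choice) in 77 libraries (columns, by tissue and then by the mean over the genes). AT and CT are evenly bright, whereas in T and SM the levels increase from left to right, with library means of 3.67 to 6.58 in T and 4.29 to 7.27 in SM.

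Part of this spread fell on cats 11 to 17. Their 7 T libraries had means of 5.31 to 6.58 (median 5.94) and were all among the 11 highest T libraries, while the other 23 ran from 3.67 to 6.50 (median 4.56). The highest T value of a gene lay in one of these 7 libraries for 36 of the 100 genes. Depth moved with this as well, since the 7 T libraries had a median of 5102237 counts and the other 23 a median of 10421811. The number of all genes with a count was nonetheless higher in the T libraries of these cats, with a median of 18343 against 14421. It was also higher in their AT (16970 against 12687), CT (18332 against 13366.5) and SM libraries (16032 against 13289). In AT the mean over the 100 genes did not stand apart in the 5 libraries of these cats. It was 7.94 to 8.39 (median 8.13) against 7.41 to 8.29 (median 8.11) in the other 11. In SM the 3 libraries had 5.6, 6.63 and 6.70, and the other 17 ran from 4.29 to 7.27 (median 5.62). The part that depth, the number of genes detected or the group of cats has in the T and SM values was not tested. The highest of the other 23 T libraries, that of cat 26 with 6.50, was a library of 6535334 counts.

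In SM a few libraries held most of the high values. The SM library of cat 11 was the highest SM library for 37 genes, that of cat 30 for 30 and that of cat 19 for 8. The first of these had 33 genes above the lower of the AT and CT medians and the second had 23, while 13 of the 20 SM libraries had 2 or fewer. The SM library of cat 11 was shallow, with 1098607 counts, and 70 of the genes had at least 10 counts in it, against 100 in that of cat 30. The SM library of cat 30 was deep, with 10094616 counts. It had the highest mean of the tissue, 7.27, where the next were 6.70 in cat 13 and 6.63 in cat 11. Without it, 98 genes were called higher in AT than SM (22.5% of all genes) and 97 in CT than SM (25%), against 96 and 96 with it.

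By the median over genes, the spread between libraries was wider for these genes than for genes at large, in each tissue. Among genes with a median of at least 10 counts, the median standard deviation of log2(normalized count + 1) in T was 1.69 for 86 of the 100 genes and 0.837 for all 12860 genes, and in SM it was 1.58 and 0.818. In AT it was 0.915 against 0.790 and in CT 0.975 against 0.847, with all 100 genes included. The mean standard deviation went the other way in these tissues, with 0.934 against 0.993 in AT and 1.06 against 1.15 in CT. In T and SM the mean was also wider for these genes, with 1.68 against 1.03 and 1.49 against 1.02. Lower counts scatter more, and at a median of at least 100 counts the values in T were 1.14 for 29 of the genes and 0.661 for all genes, and in SM 0.888 for 26 of the genes and 0.577 for all genes. At that limit AT had 0.751 for 59 of the genes against 0.524 for all genes and CT 0.861 for 66 of the genes against 0.547, so the genes were more spread than genes at large in all 4 tissues, and the excess in CT was similar to that in SM.

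The genes also varied together across libraries, most of all in SM. The median Pearson correlation between pairs of these genes was 0.288 across the 20 SM libraries (94 genes with a median of at least 10 counts) and 0.184 across the 30 T libraries (86 genes). It was 0.0623 across the 16 AT libraries and 0.0260 across the 11 CT libraries (100 genes each). For all genes the medians were 0.0165 in SM, 0.0084 in T, 0.0079 in AT and 0.0359 in CT. The values are descriptive, since all pairs share the libraries, their depth and their size factors, and in CT the genes correlated no more than genes at large.

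AT and CT were compared with each other, although the rule had bounded this difference. The fold changes of the 100 genes were balanced, with 51 positive and 49 negative for AT relative to CT and a median of 0.02 on the log2 scale against -0.02 for all genes tested. One gene (1 of 100) was called higher in AT, where 4.32% of all genes were, and 1 was called higher in CT, where 2.87% of all genes were. In the 5 cats with both tissues 8 genes were higher in AT in all 5 (5.65% of all genes) and 6 were lower in all 5 (7.54%), and within a cat 40 to 60 of the genes were higher in AT.

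Both called genes are named because the counts are small, which was decided after their values were seen. The one higher in AT, ENSFCAG00000011271, had a lowest, median and highest level of 112, 223 and 772 normalized counts in AT and of 6.72, 123 and 222 in CT. In T it had 0, 8.13 and 323, and in SM 0, 1.51 and 93.5. The CT libraries were divided: those of cats 6 and 29 were lowest, at 6.72 and 13.1, while those of cats 8, 13, 14, 17, 21 and 32 lay between 123 and 222, within the AT range. The log2 fold change of AT against CT was 1.91 (SE 0.42, edgeR adjusted p = 0.00206), and it stayed between 1.76 and 2.06 and called when each of the 27 libraries was left out in turn. With the cat as a block, where only the 5 cats with both tissues inform the fold change, it was 2.98 (SE 0.77, edgeR adjusted p = 0.0771) and was not called.

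The gene higher in CT, ENSFCAG00000024912, had 124, 234 and 638 normalized counts in CT and 19, 136 and 255 in AT (lowest, median and highest). It had 0, 32.4 and 541 in T and 7.32, 39.5 and 110 in SM. Every CT library was above every SM library, and the AT and CT ranges overlapped between 124 and 255. The log2 fold change of AT against CT was -1.03 (SE 0.29, edgeR adjusted p = 0.0181), just beyond the limit. It was no longer called after leaving out the AT library of cat 12 (-0.96), 18 (-0.98) or 28 (-0.99), or the CT library of cat 21 (-0.89) or 29 (-0.89), nor with the cat as a block (-0.73, SE 0.29, edgeR adjusted p = 0.282). No gene of the 100 was called in both the unblocked and the blocked fit of AT against CT. The blocked fit had 2 genes higher in AT (1.88% of all genes) and 0 higher in CT (0.729%). Its fold changes rest on the 5 cats with both tissues, so it had less data to call a gene.

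T and SM were compared with each other last. The rule does not use the sign of their difference, but it limits the higher of their medians relative to AT and CT. Genes high in T or in SM are thereby left out, so low counts of genes that differ between T and SM are in part set by the choice. The SM median was above the T median for 73 genes and below it for 27. In the edgeR fit 99 of the 100 genes passed the filter on low counts, 2 were called higher in T (24.1% of all genes tested) and 15 higher in SM (16.9%). The fold changes of T relative to SM were positive for 40 genes and negative for 59, with a median of -0.07 on the log2 scale where all genes had 0.24. The direction depends on the scaling, and the number of calls also on the pairing. Without TMM normalization, which moves the median of all genes to 1.42, 40 genes were called higher in T (61.7% of all genes in that fit) and 2 higher in SM (5.45%). With the cat as a block, 1 gene was called higher in T (25.7% of all genes) and 32 higher in SM (18.7%), 14 of which were among the 15, and the median was -0.59.

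The gene with the lowest fold change of T against SM, ENSFCAG00000012876, was one of those high in AT and CT throughout. It had 1846, 4499 and 10532 normalized counts in AT, 606, 2793 and 6173 in CT, 199, 541 and 3276 in SM, and 0, 15.1 and 2024 in T (lowest, median and highest). T and SM were divided except for a few libraries: the T library of cat 8 reached 2024 and that of cat 26 had 279, inside the SM range, and all other T libraries were at 130 or below. The log2 fold change of T against SM was -2.94 (SE 0.61, edgeR adjusted p = 4.4e-05). Without the T library of cat 8 it was -4.50 (SE 0.47, edgeR adjusted p = 4.73e-12), and with the cat as a block -5.40 (SE 0.64, edgeR adjusted p = 9.62e-08).

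The largest fold change of T against SM was that of ENSFCAG00000014551, which rests on 2 tumors. Its lowest, median and highest levels were 0.542, 23.4 and 1102 normalized counts in T and 0, 22.9 and 156 in SM, so the medians hardly differed. In AT it had 15.7, 102 and 415, and in CT 82.4, 141 and 255. The T libraries of cats 6 and 24 had 1102 and 839, above every AT and CT library, while the next T library, that of cat 30, had 111. The log2 fold change was 1.40 (SE 0.62, edgeR adjusted p = 0.0474). Without the T library of cat 6 it was 0.72 (edgeR adjusted p = 0.26) and without that of cat 24 it was 0.94 (edgeR adjusted p = 0.158), and in 16 of 50 fits that each left out 1 library it was not called. The blocked value was 0.31 (SE 0.67, edgeR adjusted p = 0.707).

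**Figure D4:**
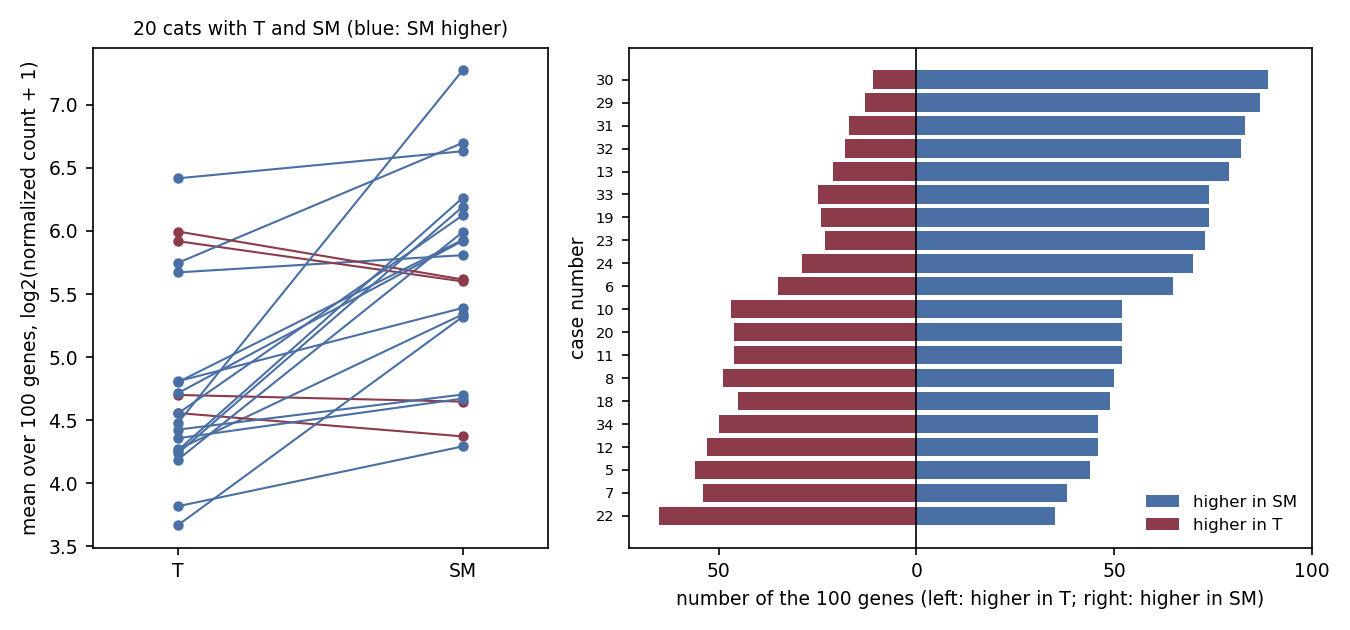
The 100 genes in the 20 cats with both T and SM. Left, the mean of log2(normalized count + 1) in each T and SM library, joined by cat; right, the number of genes higher in SM (blue) or T (red) in each cat. The mean was higher in SM in 16 of 20 cats, and the number of genes higher in SM ran from 35 in cat 22 to 89 in cat 30.

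Within the 20 cats that had both, the mean over the genes was higher in SM than T in 16. The number of genes higher in SM than in T of the same cat ran from 35 in cat 22 to 89 in cat 30, with a median of 58.5. No gene (0 of 100) was higher in SM in all 20 cats (6.50% of all genes were), and 0 were lower in all 20 (4.42%). The SM library of cat 30 was the highest of its tissue. These counts use the median-of-ratios scale, on which SM lies above T.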

How the data were processed

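Counts per gene were deposited by the authors as whole numbers without normalization, 1 file per library. According to the study's methods the reads were trimmed with Trimmomatic and assigned with Kallisto to Felis_catus_9.0 (Ensembl), whereas the submitters' processing notes name STAR and featureCounts, so the counting step remains uncertain. Counts of near-identical genes are uncertain, since either method has to divide or drop shared reads. No other table of the deposit was used.

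Tissue and case number were taken from the titles. Levels are counts divided by median-of-ratios size factors from the 6527 genes with a count in every library. Pairs of tissues were fitted separately with edgeR 4.0.16 (quasi-likelihood test, TMM, filterByExpr, Benjamini-Hochberg) in R 4.3.3 with limma 3.58.1, tested on simulated data before use. DESeq2 1.42.0 was an alternative. With the cat as a block, only cats with both tissues inform a fold change. These were 16 for AT and T, 11 for CT and T, 10 for AT and SM, 8 for CT and SM, 5 for AT and CT and 20 for SM and T. Python 3.11.15, pandas 2.3.3, numpy 2.4.6 and matplotlib 3.10.9 served for levels, counts of genes and plots. The SE is the fold change divided by the square root of its F statistic. The totals of 847003 to 19099337 counts per library limit the precision of the lowest genes. AT and CT had the lower totals, but the 100 genes had fewer counts in T and SM. The median gene had a median raw count of 44.25 in T and 38.75 in SM, against 134.75 in AT and 168 in CT.

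Same-numbered libraries come from 1 cat. Across genes, the correlation of their deviations from the mean of each tissue had a median of 0.175 (AT and T), 0.215 (CT and T), 0.183 (AT and SM), 0.141 (CT and SM), 0.393 (AT and CT) and 0.117 (SM and T), against 0.0164 to 0.0753 between different cats.

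The genes, gene lists and alternatives were chosen with earlier results of these data known. The reference table of 39307 genes matched 0 identifiers, so no list could be counted. Named are the 2 genes with the largest ratio and the called genes with the largest and smallest T against SM fold change. The 2 called between AT and CT were added.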

Additional observations from a re-analysis of the deposited data

How the results depend on the processing

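Of 83 recalculated results under other settings, 67 stayed within 1.5 times the reported count or within 1 SD, and 16 did not. Without TMM the calls between T and SM turned from mostly SM to mostly T, with 40 genes higher in T (61.7% of all genes) and 2 in SM (5.45%). Over all of these the number of the 100 genes called higher ran from 84 to 98 for AT over T, 77 to 85 for CT over T, 93 to 100 for AT over SM and 89 to 100 for CT over SM, where both counts of 100 came without TMM, with 62.5% and 64.5% of all genes called. Genes higher in CT than AT numbered 2 with DESeq2 (4.07% of all genes), 2 without the filter on low counts (2.97%), 4 without cats 11 to 17 (3.66%) and 3 without libraries under 2000000 counts (3.98%). Genes higher in AT than CT numbered 2 without cats 11 to 17 (4.89%), 4 without the shallow libraries (4.76%), 2 without the AT library of cat 5 (3.93%) and 2 without that of cat 6 (3.81%). With the replicate block there were 2 higher in AT (1.88%) and 0 in CT (0.729%), and 1 higher in T (25.7%) and 32 in SM (18.7%). The block moved no other count by over 1.5 times, but the genes called were not all the same. Of the unblocked calls, those also made with the block were 92 of 92 for AT over T and 68 of 78 for CT over T. They were 91 of 96 for AT over SM and 87 of 96 for CT over SM. Leaving out 1 library at a time gave 1 to 3 genes higher in AT than CT, 0 to 4 higher in CT than AT, 1 to 4 higher in T than SM and 14 to 18 higher in SM than T. The count of 4 higher in CT came without the AT library of cat 15, and that of 4 higher in T without the SM library of cat 11. The choice itself kept 59 of the 100 genes when tissue means replaced medians, 71 without cats 11 to 17, 73 without the shallow libraries, 73 with a minimum of 100, 89 with TMM scaling, 92 with a pseudocount of 10 and 94 without the AT library of cat 5. TMM scaling put the CT median of the library means at 8.18 in place of 7.92. The cause of these shifts was not tested. The leave-outs of single libraries other than that of cat 5, and all settings for the library means, were added after the data were seen.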

Other observations

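The reads of the 100 genes were divided unevenly among them, and no other set of genes was counted beside them. The 10 with the most reads in each tissue took 51.4% of the summed mean share in AT, 48.6% in CT, 52.8% in T and 52.6% in SM. Of the 10 with the most reads in AT and CT together, 9 were also among the first 10 in SM and 6 among the first 10 in T. These shares are of counts, not per transcript length, so the order is one of reads and not of level.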
